A study of Mus musculus with 2 samples.

Results

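The genes described here are 10 named genes, given together as enzyme and surface genes of early red cell development: Car1, Car2, Aqp1, Blvrb, Cldn13, Ermap, Icam4, Kel, Hemgn and Trim10. They were taken by symbol from the gene tables, and all 10 were found among 43346 annotated genes, 21474 of them protein-coding. Poly(A)-selected RNA was sequenced from primary megakaryocyte-erythroid progenitors (MEP), progenitors from which red cells and platelet-forming megakaryocytes arise, labelled as adult female C57BL/6J at 5 weeks. The study has 1 group of 2 libraries, biological replicates 1 and 2, with no treatment or allele named, so no condition can be compared. The cells carry a label giving CD34- and naming lineages and CD16/32, without saying how those antigens were gated. Both libraries bear the same donor identifier, and nothing says that they came from separate mice, so the spread between them may be technical.

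Maturing red cells carry carbon dioxide and water across their membrane and dispose of surplus heme. Carbonic anhydrases turn carbon dioxide into bicarbonate, Aqp1 is a water channel, and biliverdin reductases reduce the green product of heme breakdown. Ermap, Icam4, Kel and Aqp1 encode proteins whose human forms carry blood group antigens (Scianna, Landsteiner-Wiener, Kell and Colton). The heading of enzymes and surface proteins does not cover Hemgn, a nuclear protein of blood cell progenitors, or Trim10, a protein of the tripartite motif (TRIM) family needed for erythroid maturation in mouse cells. Since 1 cell type was sequenced, whether any of these levels is particular to erythroid cells cannot be read from the data.

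The libraries held 79539457 (replicate 1) and 65305321 (replicate 2) estimated counts on annotated genes, and the limit that a count of 0 allows was 0.0377 and 0.0459 CPM, meaning counts scaled to library size (counting error only). Of the erythroid regulator list, 10 of 10 genes were detected, with Ldb1, a scaffold of the Gata1 complex, highest at 667 ± 104 TPM (SD, n = 2). TPM is transcript abundance corrected for length and scaled to the library, and detected means a TPM of 1 or more in both libraries. Of all protein-coding genes, 46.9% were detected, the share beside which the counts of each list stand. Granulocyte and monocyte markers were also present in these libraries, 15 of 15, with summed levels of 32760 TPM in replicate 1 and 19100 TPM in replicate 2. Those sums far exceeded the sums of the erythroid regulators, 1849 TPM in replicate 1 and 2411 TPM in replicate 2. Mpo, Prtn3 and Elane held 30.9%, 32.4% and 26.3% of the granulocyte and monocyte sum in replicate 1. In replicate 2 they held 34.2%, 27.1% and 22.7%. One list holds 15 markers and the other 10 regulators, so the sums do not measure the share of cells of a type. Megakaryocyte markers were detected for 7 of 10 genes, with sums of 219 and 359 TPM and Gp6 at 0. Itga2b alone held 52.2% and 58.9% of those sums. Lymphoid markers were detected for 5 of 10 genes, with sums of 106 and 43.8 TPM. Mast cell and basophil markers were detected for 4 of 6 genes, with sums of 72.7 and 76.7 TPM, of which Prss34 alone held 78.4% and 78.7%. In RNA of a whole sorted population, fewer cells of a type and less RNA per cell cannot be told apart.

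The 10 genes spanned a 183-fold range, from Blvrb at 227 ± 31.6 TPM to Trim10 at 1.24 ± 0.495 TPM (SD, n = 2). Detection was reached by 9 of 10, against 46.9% of all protein-coding genes. Trim10 missed it, with 1.59 TPM in replicate 1 and 0.89 TPM in replicate 2. The median of the 10 was 16.2 TPM in replicate 1 and 23.8 TPM in replicate 2. Over all protein-coding genes the median was 0.67 and 0.75 TPM, and over those detected in both libraries it was 15.9 and 16.9 TPM. The median of the detected genes was close to that of the 10 in replicate 1 and below it in replicate 2. Blvrb, Car2, Car1 and Aqp1 held 92.2% and 91.4% of the summed level of the 10, which was 539 TPM in replicate 1 and 680 TPM in replicate 2. Those sums are 0.0539% and 0.0680% of each library. By mean TPM, Blvrb ranked 694 among the protein-coding genes, Car2 863, Car1 1506 and Aqp1 2277, while Cldn13 ranked 9862 and Trim10 10050.

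Neighbours in the order of levels were called apart where both libraries gave the same order and the authors' TPM intervals, which cover quantification error within 1 library, were separate in each. By this rule 6 of 9 neighbouring pairs were apart. Icam4 and Ermap, Hemgn and Kel, and Cldn13 and Trim10 were not. All 9 pairs had the same order in both libraries. In CPM not corrected for length, Aqp1 came above Car1, Ermap above Icam4 and Trim10 above Cldn13.

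**Figure D1:**
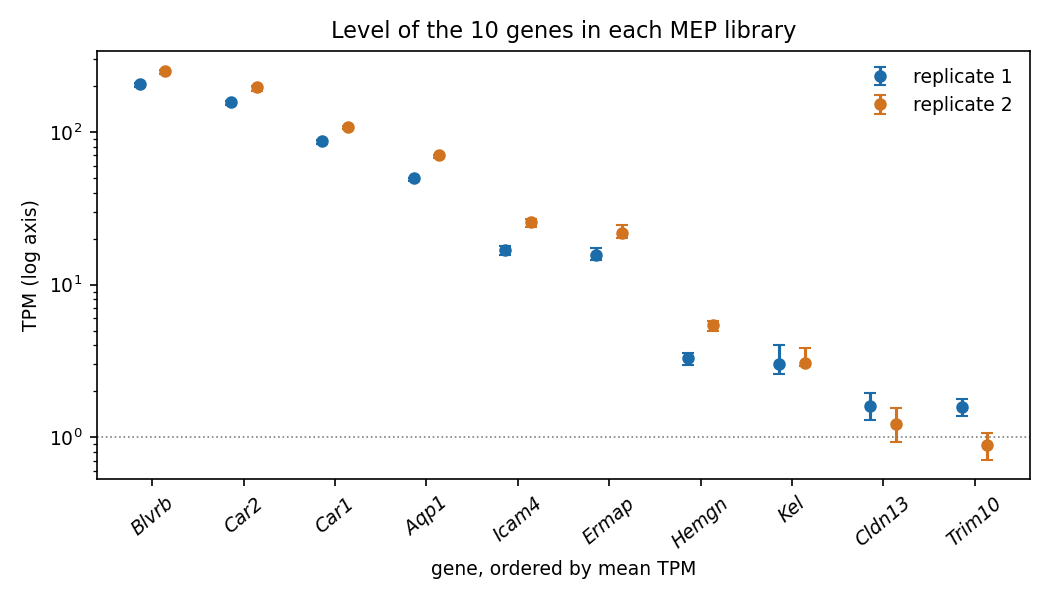
TPM of each gene (log axis) in replicate 1 (blue) and replicate 2 (orange), with bars for the authors' TPM intervals within a library and a dotted line at a TPM of 1. Blvrb, Car2, Car1 and Aqp1 stand above 49 TPM in both libraries, and the Trim10 point of replicate 2 alone lies below the line.

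Among the enzymes, Blvrb (ENSMUSG00000040466.11, chromosome 7, 27447978 to 27466144, GRCm38, forward strand) was the most abundant. It encodes biliverdin reductase B, which also acts as a flavin reductase in red cells, and it was at 205 TPM in replicate 1 and 249 TPM in replicate 2. Within the heme breakdown list all 4 genes were detected, and Blvrb held 89.2% and 91.1% of the summed level. Blvra, which encodes the other biliverdin reductase, was at 4.67 and 3.84 TPM, so the log2 ratio of Blvrb to Blvra was 5.73 ± 0.40 (SD, n = 2), or 53.2-fold. The heme oxygenases that act one step earlier were lower than Blvrb, with Hmox2 at 13.2 and 14.8 TPM and Hmox1 at 6.93 and 5.75 TPM. The order of Hmox2 over Hmox1 was the same in both libraries, but their log2 ratio of 1.14 ± 0.30 (SD, n = 2) was 0.93 in replicate 1 alone, below the limit of 1 used for a call. Blvrb-201, the leading of its 5 annotated transcripts, held 68.2% and 66.8% of its TPM.

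Car2 and Car1 lie in a cluster of carbonic anhydrase genes on chromosome 3 that runs 259 kb from Car13 at 14641727 to the end of Car2 at 14900770, and neighbouring genes of the cluster stood at unlike levels. Car2 (ENSMUSG00000027562.8, 14886273 to 14900770, forward strand), the high-activity cytosolic enzyme, was at 157 TPM in replicate 1 and 195 TPM in replicate 2. Car1 (ENSMUSG00000027556.11, 14766216 to 14808368, reverse strand), a cytosolic enzyme of lower activity, was at 86.4 and 108 TPM. Both exceeded the other cluster genes in each library. Car3, a cytosolic form best known from muscle and fat, was at 5.82 and 7.66 TPM, and Car13 at 0.48 and 0.91 TPM. The log2 ratio was 4.71 ± 0.05 for Car2 over Car3 and 8.02 ± 0.42 for Car2 over Car13 (SD, n = 2). Car2 exceeded Car1 by 1.81-fold in each library, a log2 ratio of 0.86 that did not reach 1. Of the 16 carbonic anhydrase genes listed, 5 were detected, and Car2 and Car1 held 59.9% and 33.0% of the family's TPM in replicate 1 and 60.4% and 33.4% in replicate 2. Outside the cluster, the tumour-associated membrane form Car9 was at 7.28 and 6.57 TPM, above Car3 in replicate 1 and below it in replicate 2, and Car4, Car6, Car10 and Car14 were listed at 0.

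The coding sequences of Car1 and Car2 were identical at 490 of 780 aligned bases (62.8%), and the longest run of bases they share was 15. The stretches around that run are shown to let the coding sequences be compared by eye, with the shared run in capitals. They start at base 42 of the Car1 coding sequence and base 39 of the Car2 coding sequence (GENCODE M21, chromosome 3), and 41 of their 60 bases are identical.
Car1: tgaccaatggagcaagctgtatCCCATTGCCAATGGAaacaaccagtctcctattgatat
Car2: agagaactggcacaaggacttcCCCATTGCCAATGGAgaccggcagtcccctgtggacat
No run of 50 bases in a Car2 transcript occurred in a transcript of any other gene. For Car1, 13.4% of such runs also occurred in the pseudogene Gm5843. Reads lying wholly within those runs could not be told from reads of Gm5843.

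Mouse Car1 is known to be read from a distal promoter in erythroid cells and from a proximal one in colon. The files separate transcripts by their first exons. Car1-203, which begins at the distal start (first exon 14808302 to 14808365), was at 81.7 TPM in replicate 1 and 75.8 TPM in replicate 2, with overlapping intervals. Car1-201, which begins 29.9 kb further along (first exon 14778348 to 14778459), was at 4.35 and 30.7 TPM, with intervals of 0.249 to 10.5 TPM and 21.7 to 37.9 TPM. The distal form thus led in both libraries, with 94.6% of Car1 TPM in replicate 1 and 70.3% in replicate 2, while the other form differed between them. The higher total for Car1 in replicate 2 lay in Car1-201 and not in the distal form. Both transcripts have the same coding sequence and share 5 exons, so the estimate rests on the exons that differ, among them first exons of 64 and 112 bases.

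For Car2 the leading transcript depended on the measure. The 587-base Car2-202 held 51.8% and 50.7% of TPM, whereas the 1788-base Car2-201 held 63.5% and 58.5% of the estimated counts. Car2-203, annotated as a retained intron, held 13.4% and 18.4% of TPM, so that coding transcripts of Car2 came to 136 and 159 TPM.

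Of the surface genes, Aqp1 (ENSMUSG00000004655.5, chromosome 6, 55336432 to 55348555, forward strand) was the most abundant. It was at 49.5 TPM in replicate 1 and 70.0 TPM in replicate 2, from a single annotated transcript. It held 88.7% and 90.1% of the TPM of the 12 aquaporin genes, of which 2 were detected. The other was Aqp11, an intracellular form, at 5.04 and 6.33 TPM. Aqp9, a channel for water and glycerol, was at 0.80 and 0.82 TPM. The log2 ratio of Aqp1 to Aqp9 was 6.17 ± 0.33 (SD, n = 2). Both Aqp9 values lay below the authors' own TPM intervals, which began at 0.86 TPM in replicate 1 and 0.91 TPM in replicate 2. Those intervals reached past a TPM of 1, so the count of 2 detected aquaporins rests on the listed TPM. With the posterior mean TPM, another estimate of the level, the log2 ratio of Aqp1 to Aqp9 was 5.61 and the pair was still called.

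Icam4 (ENSMUSG00000001014.5, chromosome 9, 21029373 to 21030595, forward strand), an intercellular adhesion molecule of red cells that binds integrins, was at 16.8 TPM in replicate 1 and 25.7 TPM in replicate 2. It lies 556 bases from Icam1, a ligand of leukocyte integrins that is transcribed in the same direction, and the pair had like levels, since Icam1 was at 23.1 and 34.4 TPM. Their log2 ratio was -0.44 ± 0.03 (SD, n = 2). On the CPM scale, which ignores length, it was -2.08. Icam5, 1478 bases to the other side, was at 0.32 and 0.57 TPM. Icam2, found on endothelium and platelets, was at 45.1 and 42.7 TPM and exceeded Icam4 in both libraries, with a log2 ratio of Icam4 to Icam2 of -1.08 ± 0.49 that was -0.73 without replicate 1. Of 9 integrin genes whose products are described as ICAM4 receptors in human cells, all 9 were detected, with Itga2b (CD41) highest at 115 TPM in replicate 1 and 211 TPM in replicate 2. An antisense gene, Gm47079, covers all of Icam4 in GENCODE M21 but has no values in the tables used here. Whether the authors counted by strand is not stated in the sources used here, so reads of Gm47079 could not be told from those of Icam4.

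Ermap (ENSMUSG00000028644.12, chromosome 4, 119175457 to 119190011, reverse strand), an erythroid membrane protein of the butyrophilin family, was at 15.5 TPM in replicate 1 and 21.9 TPM in replicate 2. It held 73.2% and 76.2% of the TPM of 9 family genes, and Btnl10 (3.12 and 3.39 TPM) and Btnl9 (2.57 and 3.43 TPM) were the others detected. The library gap for Ermap was seen in TPM but hardly in counts, where it had 46.0 CPM in replicate 1 and 49.6 CPM in replicate 2. Its effective length, averaged over the transcripts assigned, was 3564 bases in replicate 1 and 2798 bases in replicate 2. Ermap-202, of 724 bases, took 12.4% and 26.8% of TPM from 74.4 and 180 estimated counts, while Ermap-206, the leading transcript of 4551 bases, was at 9.47 and 10.3 TPM with overlapping intervals.

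Kel (ENSMUSG00000029866.9, chromosome 6, 41686330 to 41704339, reverse strand), a zinc endopeptidase of the red cell surface, showed the reverse. Its TPM was 3.04 in replicate 1 and 3.05 in replicate 2, but its counts came to 3.77 and 5.90 CPM. In replicate 1, 24.1 of 300 estimated counts were assigned to Kel-202, a processed transcript of 422 bases, and these made up 42.5% of the gene's TPM. In replicate 2, Kel-202 was listed at 0. The coding transcript Kel-201 was at 1.74 and 3.05 TPM, with separate intervals of 1.52 to 1.94 TPM and 2.70 to 3.30 TPM. The equal gene values for Kel therefore cover unequal values of its coding transcript. Xk, whose product is bound to Kell in human red cells, was at 3.58 and 3.96 TPM, and the log2 ratio of Kel to Xk was -0.31 ± 0.10 (SD, n = 2), or -1.69 in counts not corrected for length. Among the related M13 peptidase genes, Ece1, an endothelin-converting enzyme, was highest at 50.1 and 73.7 TPM, and Mme was listed at 0.

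Cldn13 (ENSMUSG00000008843.4, chromosome 5, 134914249 to 134915526, reverse strand), a rodent claudin known from erythroblasts, was at 1.61 TPM in replicate 1 and 1.23 TPM in replicate 2, from 99 and 60 estimated counts. It was 1 of 3 claudins detected among 23. The most abundant was Cldn15, a claudin of intestinal tight junctions, at 57.0 and 33.9 TPM. The log2 ratio of Cldn13 to Cldn15 was -4.96 ± 0.26 (SD, n = 2), a 31.0-fold difference. Cldn12 was at 1.83 and 6.58 TPM.

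**Figure D2:**
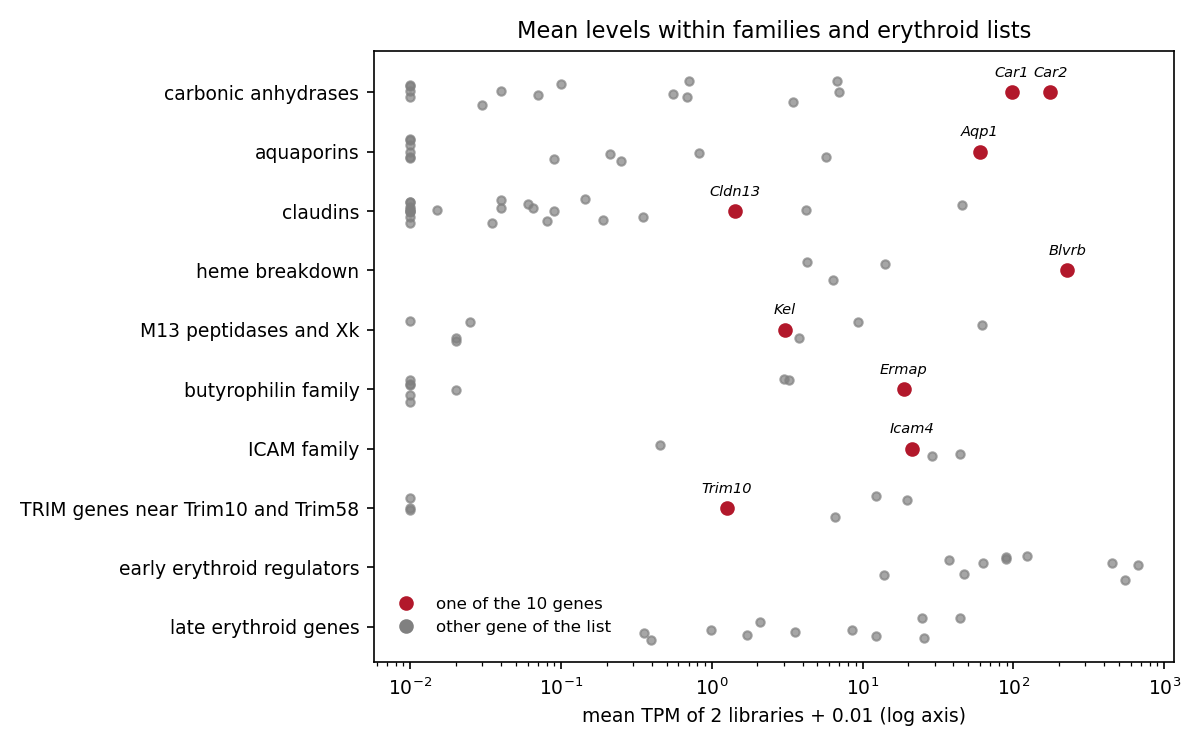
Mean TPM of the libraries plus 0.01 (log axis) for each gene of 8 family or neighbour lists and 2 erythroid lists, 1 row a list. Those of the 10 genes that belong to a list, all but Hemgn, are in red and named. The other genes are in grey, scattered vertically for legibility. Car2 and Car1, Aqp1, Blvrb and Ermap are the highest of their rows, whereas Cldn13, Kel, Icam4 and Trim10 have higher relatives.

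Hemgn (ENSMUSG00000028332.9, chromosome 4, 46393989 to 46413506, reverse strand), whose product is hemogen, was at 3.28 TPM in replicate 1 and 5.44 TPM in replicate 2. Gata1, known to activate Hemgn, was at 28.5 and 45.8 TPM, and the log2 ratio of Hemgn to Gata1 was -3.09 ± 0.03 (SD, n = 2), an 8.53-fold gap. Hemgn-201 held 100% and 91.9% of its TPM. Trim10 (ENSMUSG00000073400.6, chromosome 17, 36869574 to 36877833, forward strand) lies between Trim15 and Trim40, both listed at 0. Trim58, whose product acts in the late maturation of erythroblasts in mouse, was at 5.27 TPM in replicate 1 and 7.89 TPM in replicate 2. The log2 ratio of Trim10 to Trim58 was -2.43 ± 1.00 (SD, n = 2), being -1.72 in replicate 1 and -3.13 in replicate 2, so the sign held and the size did not.

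Beside the 10 genes, the list of early erythroid regulators had a median of 88.9 ± 10.3 TPM (SD, n = 2), and that of late erythroid genes 3.53 ± 1.12 TPM. Of 11 late genes measured, 8 were detected. Tspo2, a membrane protein of erythroblasts, was highest at 39.0 TPM in replicate 1 and 49.2 TPM in replicate 2. The median of the 10 genes, 20.0 TPM, lay between the medians of these lists. The lists were chosen with earlier results of these data known, so this order is a description.

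Promoter sequence was given in the RefSeq table (GRCm38.p6) for 7 of the 10 genes: Hemgn, Ermap, Kel, Aqp1, Blvrb, Icam4 and Trim10. The letters AGATAA, likewise AGATAG, further TGATAA, lastly TGATAG, which GATA factors such as Gata1 can bind, were searched on both strands in the 250 bases before each RefSeq start. At least 1 was found for 6 of the 7 genes, all but Aqp1, against 8039 of 27025 genes with a window (29.7%). The letters CCNCNCCC of Krüppel-like factors were found for 4 of 7, against 48.5% of genes. The letters CAGNTG of Tal1-type factors were found for 3 of 7, against 48.2%. A match of letters is a description of the sequence and was not tested as a binding site. The stretches of 60 bases around the matches of 4 surface and TRIM genes are shown, with the GATA letters in capitals on the gene's own strand (TTATCA is the opposite-strand form of TGATAA, whereas TTATCT is the opposite-strand form of AGATAA).
Ermap, chr4:119190030-119190089, reverse strand: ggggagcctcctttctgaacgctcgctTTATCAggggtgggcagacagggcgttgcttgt
Kel, chr6:41704326-41704385, reverse strand: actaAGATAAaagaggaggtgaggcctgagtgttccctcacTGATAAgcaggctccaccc
Icam4, chr9:21029338-21029397, forward strand: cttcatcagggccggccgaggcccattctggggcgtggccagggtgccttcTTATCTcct
Trim10, chr17:36869384-36869443, forward strand: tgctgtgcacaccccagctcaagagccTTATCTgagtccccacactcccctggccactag
Kel carried the letters at 2 places within these 60 bases, of which the one nearer the gene (41704339 to 41704344) ends on the first base of Kel-201. It was among the less abundant of the 7. For Icam4 the letters (21029389 to 21029394) lie before the RefSeq start but within Icam4-201, which begins at 21029373 in GENCODE M21. Icam4 and Trim10 carried the same letters at levels of 21.3 ± 6.29 TPM and 1.24 ± 0.495 TPM (SD, n = 2). Whether the letters bear on the level of a gene was not tested. For Hemgn the window lies at the start of Hemgn-202 and not of the leading transcript, and for Blvrb the match lies in the second window of the gene, before Blvrb-202, and not before Blvrb-201. For Aqp1 the RefSeq start lies 133 bases before the start of Aqp1-201, so the bases just before that transcript were not searched.

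Between the libraries, 8 of the 10 genes were higher in replicate 2 in scaled CPM, against 49.8% of 13546 genes that passed a filter on low counts. Trim10 and Cldn13 were higher in replicate 1. The log2 difference (replicate 1 minus replicate 2) was -0.15 for Blvrb, -0.16 for Car2 and -0.20 for Car1, the smallest gaps after that of Ermap. It was -0.40 for Aqp1, -0.50 for Icam4, -0.58 for Kel and -0.63 for Hemgn, and -0.05 for Ermap. Cldn13 was at 0.48 and Trim10 at 0.92, the largest of the 10, or 1.89-fold from 221 and 99 estimated counts. The median of the 10 was -0.18, against 0.00 over all 13546 genes, whose quartiles were -0.26 and 0.25. With 1 library on each side there is no test, and the only measure of error is the variation estimated over all genes, a biological coefficient of variation of 21.8%. That makes the SD of a log2 difference 0.44, without the counting error of each gene. Within 1 such SD lay 5 of the 10 genes, against 71.3% of all genes, and past 2 lay Trim10 alone, against 8.72%. Counting error would widen the SD most for Trim10, at 2.07 such SDs, and Cldn13, at 1.09. The side of these limits on which those genes fall is therefore not firm. With the variation edgeR estimated for each gene, none of the 10 lay past 2 SDs and Trim10 lay at 1.40. With the lower variation fitted by DESeq2, Hemgn, Kel and Trim10 did. Both of these alternatives leave out counting error as well.

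In TPM, 7 of the 10 genes were higher in replicate 2 with separate intervals, against 33.8% of genes, and 1, Trim10, was higher in replicate 1, against 19.1%. Kel and Cldn13 had overlapping intervals. None was more than 2-fold apart in scaled CPM with separate TPM intervals, against 4.95% of genes. TPM lay lower in replicate 1 over all genes by a median log2 difference of -0.10, and relative to that shift the median of the 10 genes was -0.22. For the transcripts that led by counts, 6 were higher in replicate 2 with separate intervals, against 29.0% of genes, 1 was higher in replicate 1 (Trim10-201), against 21.8%, and 3 overlapped, those of Car1, Ermap and Cldn13. Markers of other cell types differed between the libraries as well. In scaled CPM, 13 of 15 granulocyte and monocyte markers were higher in replicate 1, among them Elane, at 8624 TPM in replicate 1 and 4337 TPM in replicate 2, and 7 of 7 megakaryocyte markers past the filter were higher in replicate 2. Of 7 lymphoid markers past the filter, 6 were higher in replicate 1, with a median log2 difference of 1.09, and of 5 mast cell and basophil markers, 3 were higher in replicate 1, with a median of 0.02. Of the early erythroid regulators, 3 were higher in replicate 1 and 7 in replicate 2, with a median log2 difference of -0.21. The part of these cell types in the differences of the 10 genes was not tested.

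**Figure D3:**
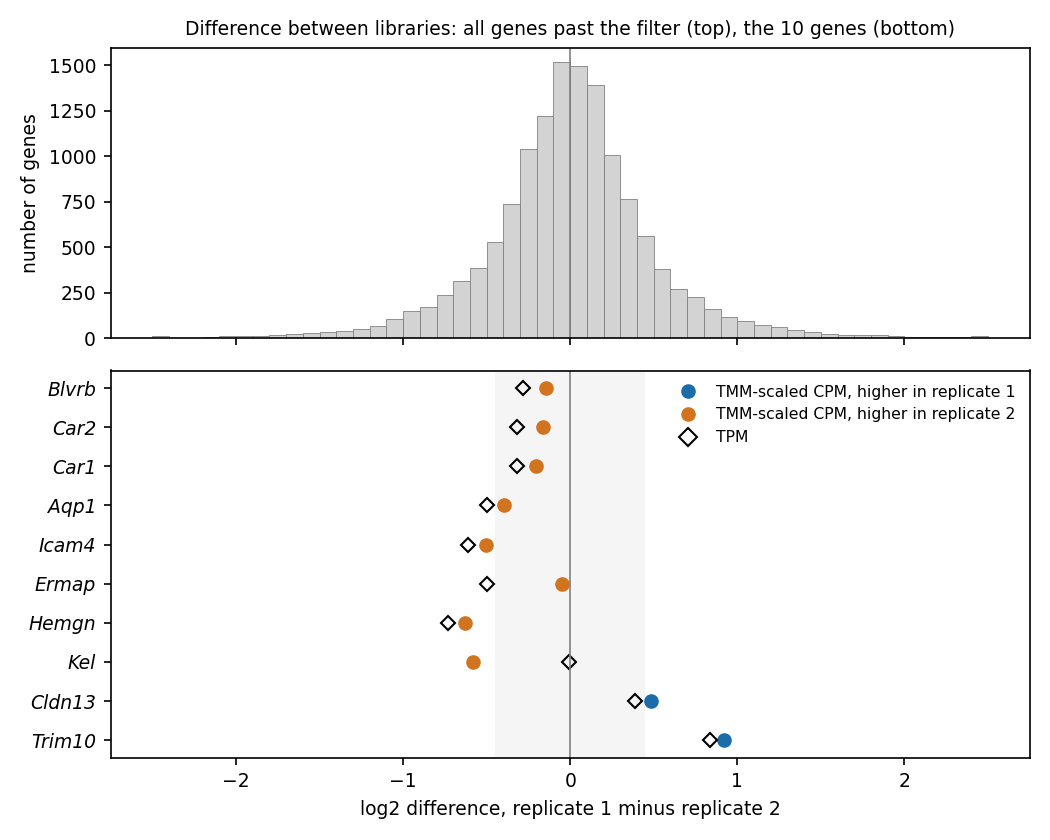
Log2 difference between the libraries (replicate 1 minus replicate 2) for all 13546 genes as a histogram (top; values beyond the range of the bars are drawn in the outer bars) and for the 10 genes (bottom) in scaled CPM (filled) and TPM (open diamonds), with a band for 1 SD of a difference without counting error, 0.44. Filled points lie left of 0 for 8 genes, and the measures part most for Kel and Ermap.

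Of the 10 genes, 4 had a single annotated transcript and 6 had several, 31 transcripts in all. For each of the 6 with several, the same transcript led in both libraries, by TPM and by counts, although for Car2 the measures named different transcripts. For the 4 with a single transcript no other outcome was possible. The share of all genes that keep their leading transcript was not computed. As a share of TPM, the leading transcript was steadier for Blvrb and Car2 than for Car1, Ermap and Kel. As a share of counts, that of Ermap was at 75.6% in replicate 1 and 74.1% in replicate 2.

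**Figure D4:**
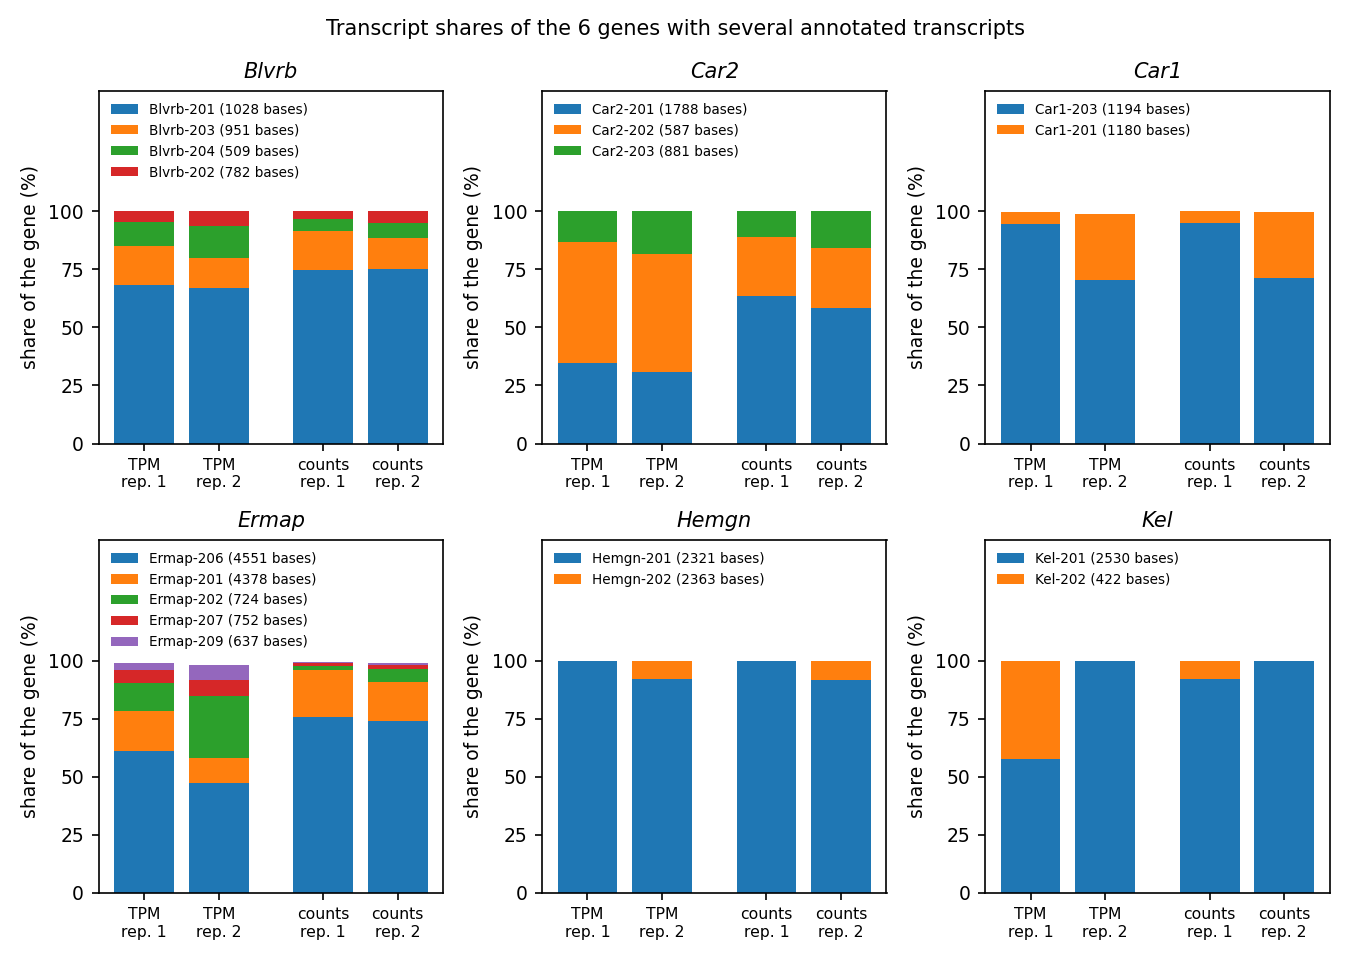
Share of each gene's TPM (left pair of bars) and estimated counts (right pair) held by its transcripts in replicate 1 and replicate 2, for the 6 genes with several annotated transcripts; transcripts whose 4 shares sum to 4% or less are not drawn. Kel-202 fills 42.5% of Kel TPM in replicate 1 and none in replicate 2, and Car1-201 fills 5.04% and 28.5% of Car1 TPM.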

How the data were processed

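Gene and transcript tables of 2 MEP libraries were used. Per the file headers, the authors deposited an expected count (estimated, not whole), TPM, FPKM, percent of each transcript within its gene, and TPM intervals whose level is not stated. Per the labels the assembly was mm10, and a deposited text file names GENCODE M4. No source used here names the aligner, the counting program or the strand setting. Of 43346 gene identifiers, 42462 matched GENCODE M21, which gave symbols and GRCm38 coordinates. Expected counts were rounded, filtered (filterByExpr) and scaled (TMM) with edgeR 4.0.16, log2 CPM with a prior count of 2. DESeq2 1.42.0 gave alternatives. Steps were tested on simulated data. Pair ratios used a pseudocount of 0.01 TPM, and a pair was called at a mean log2 ratio above 1 in size with the same sign and separate intervals in both libraries, which held for 10 of 13 pairs. These include Ermap over Btn2a2, for which no ratio is given because Btn2a2 was listed at 0; without it, 9 of 12 were called. Coding sequences were compared in place of the planned protein comparison.

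The 10 genes, the lists and the pairs were chosen with earlier results of these data known. Named genes were the 10, the pairs, their neighbours, and of each list the 3 highest, the lowest and the most different between libraries at 5 TPM or more, with genes at 0 named beside them. Ahsp was not analysed here. Intervals and count limits cover counting and assignment error only.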

Additional observations from a re-analysis of the deposited data

How the results depend on the processing

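The spread between libraries, a coefficient of variation of 21.8% from edgeR, was 28.7% with no filter on low counts and 13.0% as the median fitted dispersion of DESeq2; the cause was not tested. The number of genes higher in replicate 1 was 2 under each scaling and prior count tried and 3 in FPKM, where Kel stood at 0.03. The median difference of the 10 genes ran from -0.18 to -0.32. Detected genes numbered 10 at a TPM of 0.1 and 6 at a TPM of 5, and 9 to 10 with 1 library left out. Neighbours called apart ranged from 6 to 7 with 1 library left out and were 8 in counts not corrected for length. Called pairs were 12 in such counts and 9 without either library: without replicate 1 the call for Icam4 and Icam2 was lost, and without replicate 2 that for Hmox2 and Hmox1. Levels from protein-coding transcripts alone, shares of counts and the other SDs of a difference were added after seeing the data. No paired analysis was possible because there is 1 group. Counts of 60 to 221 limit Cldn13 and Trim10 most.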
